A study of Mus musculus with 6 samples.

Results

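The genes described here mark the production of new neurons in the adult brain: the newborn neuron genes Dcx, Sox11, Sox4, Eomes, Calb2, Igfbpl1 and Draxin, and the proliferation genes Mki67 and Top2a. The 9 symbols were looked up by Ensembl identifier among the 55471 genes of the count table. The choice rule names the genes and uses no measured value, but the genes were chosen with earlier results of these data known. They were read in 3 CBP-ifKO and 3 Control libraries of total hippocampal RNA from tamoxifen-treated C57BL/6 mice aged 3 to 6 months. CBP, encoded by Crebbp, is a lysine acetyltransferase that acetylates histones and acts as a transcriptional coactivator. In CBP-ifKO mice (Crebbp_flox;Camk2a_creERT2) tamoxifen activates a Cre recombinase driven by the Camk2a promoter, which is active in mature excitatory neurons of the forebrain and not in dividing progenitors. Control mice received the same 5 intragastric tamoxifen administrations on alternate days and were, by the study's design, littermates without the creERT2 transgene. Their sample description nevertheless reads Camk2a_creERT2. Esr1, the estrogen receptor gene of which a part is fused to Cre in creERT2, lay between 5.65 and 6.29 CPM (read counts scaled to a common library size by TMM) in the Control libraries and between 63.6 and 69.4 CPM in the CBP-ifKO libraries. Each library was made from the hippocampi of several females pooled, so that differences between single animals are averaged within a library.

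In the adult dentate gyrus, radial glia-like stem cells give rise to intermediate progenitors that express Eomes (Tbr2), and these divide and become neuroblasts. Neuroblasts and immature granule neurons express the microtubule-binding protein doublecortin (Dcx) and the transcription factors Sox4 and Sox11, and pass through a stage at which they express the calcium-binding protein calretinin (Calb2) before they mature and take up calbindin (Calb1). Mki67 encodes the nuclear protein Ki-67, found in all phases of the cell cycle but not in resting cells, and Top2a encodes the DNA topoisomerase that is used when chromosomes are condensed and separated. These genes are not all restricted to the newborn granule cell lineage: calretinin is also made by interneurons and mossy cells, and dividing cells of the hippocampus include oligodendrocyte precursors.

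Of the 9 genes, 6 passed the filter on low counts and 3 of these were lower in CBP-ifKO (adjusted p under 0.05, edgeR quasi-likelihood test over 17981 genes), namely Sox11, Calb2 and Mki67, at 71.1%, 70.2% and 68.9% of the Control mean. None was higher. Across the whole transcriptome 897 genes (4.99%) were lower and 252 (1.4%) higher, and 3816 (21.2%) had an unadjusted p under 0.05 in either direction, the share beside which such counts of the lists below should be read. Dcx, Sox4 and Top2a also had negative estimates but did not pass the test, and Eomes, Igfbpl1 and Draxin were counted too rarely to be tested. The median log2 fold change of the 6 genes tested was -0.42, and that of all genes tested was -0.00331. Across the marker lists described below 77 genes were tested, 61 with estimates below 0 and 16 above, and their median was -0.16. Of these 77 markers 10 were lower, 1 was higher and 29 had an unadjusted edgeR p under 0.05. Whether the 6 genes differed from the markers was not tested. In total RNA of a tissue, fewer cells of a type and less RNA of a gene per cell cannot be told apart.

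The sequences just upstream of Sox11, which fell, and of Mki67 and Top2a, the proliferation genes of which only the first passed the test, are shown because promoters of cell cycle genes commonly share a pair of short elements. These are the CCAAT box (CCAAT or its reverse complement ATTGG), bound by NF-Y, and the cell cycle genes homology region, or CHR (TTTGAA or its reverse complement TTCAAA), bound by the DREAM and MuvB complexes. The 250 bases before each RefSeq start (GRCm38.p6, all 3 genes on the minus strand, written 5′ to 3′ along the gene) have these matches in capitals.
Mki67 (chr7:135716380-135716629): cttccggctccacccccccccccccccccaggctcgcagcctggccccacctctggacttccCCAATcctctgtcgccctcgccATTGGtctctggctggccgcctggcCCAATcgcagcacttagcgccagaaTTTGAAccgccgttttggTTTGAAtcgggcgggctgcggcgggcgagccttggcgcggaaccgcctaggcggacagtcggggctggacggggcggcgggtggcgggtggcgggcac
Top2a (chr11:99024190-99024439): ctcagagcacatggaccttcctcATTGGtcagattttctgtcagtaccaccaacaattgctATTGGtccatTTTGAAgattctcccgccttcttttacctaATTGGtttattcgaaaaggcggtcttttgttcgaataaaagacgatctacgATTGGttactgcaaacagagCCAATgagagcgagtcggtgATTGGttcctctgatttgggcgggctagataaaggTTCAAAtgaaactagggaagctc
Sox11 (chr12:27342719-27342968): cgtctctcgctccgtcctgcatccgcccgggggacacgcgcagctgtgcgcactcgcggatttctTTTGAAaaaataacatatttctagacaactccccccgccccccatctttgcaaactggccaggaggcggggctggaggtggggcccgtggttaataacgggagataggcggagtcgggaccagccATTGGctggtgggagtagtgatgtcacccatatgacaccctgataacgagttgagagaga

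The window of Mki67 held 3 CCAAT boxes and 2 CHR matches, that of Top2a held 6 and 2, and that of Sox11 held 1 and 1. In Sox11 the CHR match (at -185 from the RefSeq start) lay upstream of the CCAAT box (-60), whereas in Mki67 every CCAAT box lay upstream of both CHR matches. Of the genes not shown, Sox4 held 4 CCAAT boxes, Eomes 2, Dcx 1 in 1 of its 2 windows and Draxin none. These genes had no CHR match. Among 32851 promoter windows of the same length, 33.8% had a CCAAT box and 16% a CHR match on either strand. Of the other cell cycle genes examined below, 28 had a window, with a CCAAT box in any window of 22 and a CHR match in any window of 8. These are counts of genes, some of which can have several windows, whereas the percentages count windows. Windows were at hand for 7 of the 9 genes, not for Calb2 and Igfbpl1. The cAMP response element TGACGTCA, through which CREB recruits CBP, was in none of the 7, nor was its core TGACG (1.55% and 17.8% of all windows). The motifs do not overlap each other except that each full cAMP response element contains the core. A match describes these letters only, and their absence from a window says nothing about binding elsewhere.

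The targeted gene was checked first. Crebbp was at 209, 156 and 208 CPM in Control 1 to 3, against 109, 87.1 and 99.4 CPM in CBP-ifKO 1 to 3, so that all 3 CBP-ifKO libraries lay under all 3 Control libraries (51.5% of the Control mean, log2 fold change -0.96, edgeR adjusted p 3.63e-05). Total counts ran from 10199008 to 14950257 per library, TMM factors from 0.968 to 1.0209, and the mitochondrial share from 6.95% to 8.73%, and replicates differed by more than sampling noise.

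Ranked by CPM per kilobase of exon, the scale on which levels of different genes can be compared, Calb2 was highest in Control, at 10.9 to 15.4. Sox4 (3.23 to 3.60) and Sox11 (3.15 to 3.58) overlapped each other, and Dcx followed at 2.12 to 2.51. Mki67 lay at 0.905 to 0.966 and Top2a at 0.132 to 0.210, without overlap between neighbours in the order from Dcx to Top2a. Draxin, Igfbpl1 and Eomes, with means of 0.072, 0.048 and 0.023, overlapped each other. In CBP-ifKO the order of the means was the same for the 6 genes tested, but Sox4 (2.32 to 3.25), Sox11 (2.09 to 2.75) and Dcx (1.97 to 2.35) were no longer separated. The level of Sox4 may include reads of Gm26735, a long non-coding RNA that shares 54.6% of the Sox4 exon bases on the other strand, since the strand setting of the counting was not stated.

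The earliest stage of the lineage that the 9 genes mark is the intermediate progenitor. Eomes (chr9:118478212-118486132), the T-box factor that defines them, had 2, 0 and 1 reads in Control 1 to 3 and 2, 0 and 2 reads in CBP-ifKO 1 to 3. The 3 reads against 4 give a ratio of CBP-ifKO to Control of 1.15 with an exact 95% counting interval of 0.194 to 7.82, so that no change in either direction could be detected at this depth. A count of 0 allows up to 3 reads, which is 0.257 CPM in Control 2 and a level of 0.197 CPM in CBP-ifKO 2. Insm1, a zinc finger factor of progenitors leaving the cycle, averaged 2.77 CPM in both groups and did not pass (edgeR adjusted p 0.979). Stem cells themselves were represented by 13 genes, all tested and none past the threshold in edgeR or DESeq2 (1 at an unadjusted edgeR p under 0.05), with a median log2 fold change of -0.13. Of the 13 estimates 12 were below 0 and 1 above. The 13 summed to 420 to 452 CPM in the Control libraries and 404 to 410 CPM in the CBP-ifKO libraries. Hes5 had the lowest estimate (-0.49, edgeR adjusted p 0.301). Among the others were Nes (-0.26, edgeR adjusted p 0.284), Hopx (-0.13) and Sox2 (-0.12), and several of the 13, such as Gfap and Sox9, are also made by astrocytes.

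Dcx (chrX:143855842-143933311), the standard marker of neuroblasts and immature neurons, was at 31.3, 26.8 and 31.7 CPM in Control 1 to 3, against 25.7, 29.7 and 24.9 CPM in CBP-ifKO 1 to 3. The groups overlapped, since CBP-ifKO 2 was above Control 2. The log2 fold change was -0.15 (SE 0.099, 95% interval -0.36 to 0.056, edgeR adjusted p 0.408). It did not pass under any of the 9 alternatives with all libraries, in which the estimate ran from -0.18 to -0.11, nor with 1 library left out, in which it ran from -0.23 without CBP-ifKO 2 to -0.09 without CBP-ifKO 3. Its relatives Dclk1, Dclk2 and Dclk3, doublecortin-like kinases that mature neurons also express, had log2 fold changes of -0.05, -0.06 and -0.07 and did not pass, and the signs of Dclk2 and Dclk3 turned when GC and length trends were removed.

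Sox11 (chr12:27334264-27342574), a SoxC transcription factor that activates Dcx and other genes of neuronal differentiation, was at 26.2, 29.7 and 27.8 CPM in Control 1 to 3, against 19.3, 17.4 and 22.9 CPM in CBP-ifKO 1 to 3. All 3 CBP-ifKO libraries lay under all 3 Control libraries, as was true of 2498 of the 17981 genes tested (13.9%). The mean fell from 27.9 ± 1.77 to 19.8 ± 2.80 CPM (SD, n = 3), which is -0.50 on the log2 scale (SE 0.11, 95% interval -0.73 to -0.27, edgeR adjusted p 0.0102, DESeq2 adjusted p 0.00867). The call was kept in all 9 alternatives with all libraries and was lost only without CBP-ifKO 2, the lowest library (edgeR adjusted p 0.0803).

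Sox4 (chr13:28948919-28953713), the second SoxC factor, was at 15.5, 16.4 and 17.3 CPM in the Control libraries and at 13.96, 15.6 and 11.1 CPM in the CBP-ifKO libraries. CBP-ifKO 2 lay just above Control 1, so that the groups overlapped (log2 fold change -0.27, SE 0.13, 95% interval -0.54 to 0.0015, edgeR adjusted p 0.238). With 1 library left out Sox4 was not called, and its estimate ran from -0.39 without CBP-ifKO 2 to -0.13 without CBP-ifKO 3. Sox12, the remaining member of the SoxC group, was at 8.36, 10.1 and 10.5 CPM in the Control libraries and at 7.95, 7.23 and 6.58 CPM in the CBP-ifKO libraries. These groups did not overlap, but the log2 fold change of -0.42 did not pass (edgeR adjusted p 0.0991). The 3 SoxC genes thus had negative estimates, of which the one for Sox11 passed the test.

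**Figure D1:**
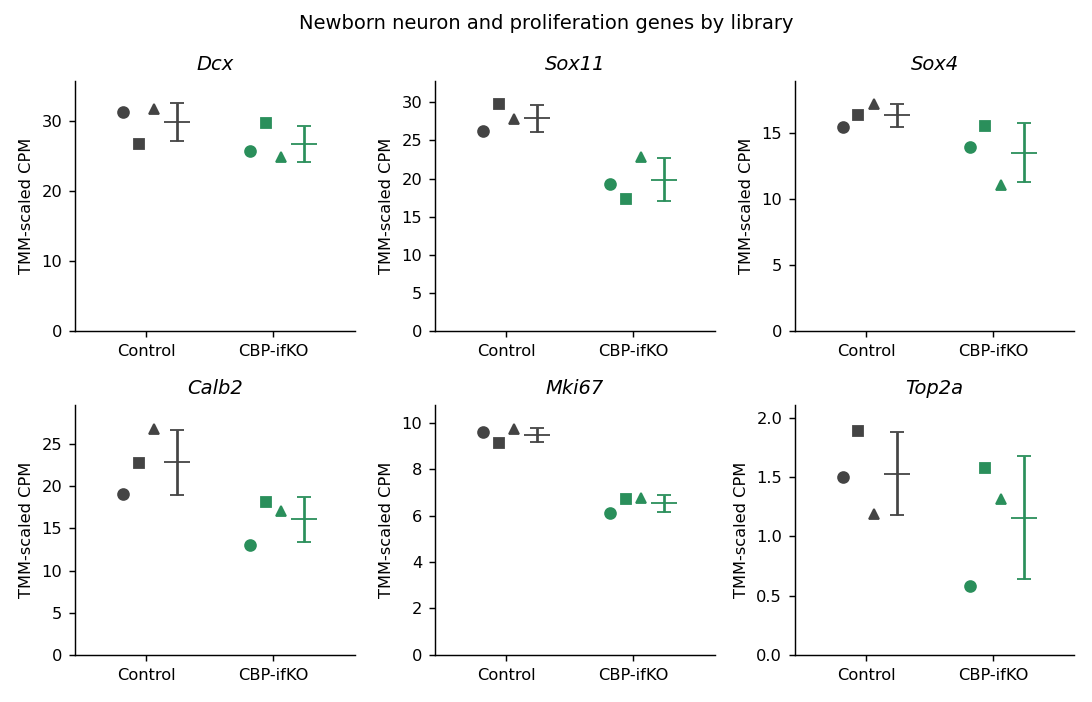
TMM-scaled CPM (y axes, starting at 0) of the 6 genes tested in each library of the 2 genotypes (x axes), with circles, squares and triangles for replicates 1, 2 and 3 and the bar for the mean ± SD (n = 3). The CBP-ifKO points of Sox11, Calb2 and Mki67 lie below all Control points, whereas those of Dcx, Sox4 and Top2a overlap them.

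Calb2 (chr8:110137502-110168210), which encodes calretinin, was at 19.1, 22.8 and 26.8 CPM in Control 1 to 3, against 13.0, 18.1 and 17.1 CPM in CBP-ifKO 1 to 3. The highest CBP-ifKO library was below the lowest Control library, although by less than the spread within either group. The mean fell from 22.9 ± 3.86 to 16.1 ± 2.70 CPM (SD, n = 3), which is -0.49 on the log2 scale (SE 0.14, 95% interval -0.78 to -0.21, edgeR adjusted p 0.0382, DESeq2 adjusted p 0.0383). The call was lost with scaling by library totals (edgeR adjusted p 0.051), with GC and length trends removed (0.061) and without Control 3 (0.215), CBP-ifKO 1 (0.127), CBP-ifKO 2 (0.058) or CBP-ifKO 3 (0.094). Calb2 is on the study's list of genes lower in these mice, which was drawn up partly from these libraries, so that its direction here is not independent evidence.

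Calb1, the calbindin gene of mature granule and CA1 neurons, was at 151, 168 and 143 CPM in the Control libraries and at 163, 193 and 183 CPM in the CBP-ifKO libraries (log2 fold change 0.23, edgeR adjusted p 0.0789). It passed with library totals (edgeR adjusted p 0.0405), when low counts were not filtered (0.0149) and without Control 2 (0.0104) or CBP-ifKO 1 (0.0387). The log2 ratio of Calb2 to Calb1 was -2.98, -2.88 and -2.42 in Control and -3.65, -3.42 and -3.42 in CBP-ifKO. The mean difference was -0.74 and the groups did not overlap (two-sided exact permutation p 0.1, the smallest that 3 against 3 libraries allow, Benjamini-Hochberg p 0.3 over 6 ratios chosen after their values were seen). Pvalb, the third calcium-binding protein commonly used to class interneurons, had a log2 fold change of -0.19 (edgeR adjusted p 0.432).

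Cells other than newborn neurons also contain Calb2, and their markers were measured beside it. Of 9 interneuron markers 2 were lower: the peptide gene Sst (from 76.3 to 53.8 CPM, log2 fold change -0.51, edgeR adjusted p 0.00154) and the vesicular GABA transporter gene Slc32a1 (-0.38, 0.045). Sst was called in every alternative run, whereas Slc32a1 was not called by DESeq2 (adjusted p 0.111), with library totals (0.0721), with GC and length trends removed (0.477) or in edgeR without any 1 library but CBP-ifKO 1 (0.0533 to 0.214). Gad1 and Gad2, which make GABA, and Vip and Htr3a, of interneuron classes that can contain calretinin, were not past the threshold (log2 fold changes -0.06, -0.08, 0.16 and -0.25). The summed interneuron markers were at 852 to 896 CPM in the Control libraries and 792 to 822 CPM in the CBP-ifKO libraries, without overlap and with none of the 9 at 0. Relative to that sum Calb2 differed by -0.39 on the log2 scale, with overlapping groups (two-sided exact permutation p 0.2, Benjamini-Hochberg p 0.3). None of 4 mossy cell markers passed in edgeR or DESeq2 (2 at an unadjusted edgeR p under 0.05). Of the 4 estimates 2 were below 0 and 2 above, and they ran from -0.34 to 0.32 with a median of 0.03. The 4 markers summed to 100 to 103 CPM in the Control libraries and 86.4 to 88.8 CPM in the CBP-ifKO libraries. Ociad2 made up most of that sum (mean from 82.5 to 71.4 CPM, log2 fold change -0.21). It was called lower with GC and length trends removed (edgeR adjusted p 0.0233). Of 6 markers of Cajal-Retzius cells, which also contain calretinin, 4 were tested and none passed (Reln -0.03, positive with library totals or with GC and length trends removed), with Lhx1 and Lhx5 too low to test. The part of these cells in the difference in Calb2 was not tested.

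Igfbpl1 (chr4:45809468-45826923), a secreted growth factor-binding protein of neuroblasts, had 1, 2 and 2 reads in Control and 1, 3 and 3 reads in CBP-ifKO, a ratio of 1.20 (exact 95% counting interval 0.329 to 4.81). Draxin (chr4:148098437-148130698), a secreted axon guidance protein that binds the netrin receptor Dcc, had 7, 2 and 3 reads in Control and 1, 4 and 5 reads in CBP-ifKO, a ratio of 0.716 (0.277 to 1.81). Both intervals, which cover counting error only, include 1, and differences of less than severalfold were not detectable. The Draxin receptors Dcc and Neo1 were far more abundant and did not pass (log2 fold changes -0.14 and -0.02, edgeR adjusted p 0.217 and 0.902), and the sign of Neo1 turned with library totals.

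In the wider list of 24 genes of neuroblasts and immature neurons 21 were tested, of which 6 were lower, 1 was higher and the median log2 fold change was -0.21. Without the genes already described, 17 were tested, 4 were lower, 1 was higher, and the median was -0.10. The others that fell were Tubb3, Dpysl3, Dpysl5 and Stmn2, whereas their relatives Tubb2b (-0.21, edgeR adjusted p 0.13) and Stmn1 (-0.10, 0.753) did not pass. The neuronal tubulin gene Tubb3 was at 123, 162 and 140 CPM in the Control libraries and at 94.5, 101 and 113 CPM in the CBP-ifKO libraries (log2 fold change -0.46, edgeR adjusted p 0.00486). Dpysl3, a collapsin response mediator of axon growth, was at 62.7, 62.4 and 63.9 CPM in the Control libraries and at 48.9, 45.4 and 42.9 CPM in the CBP-ifKO libraries (-0.46, 9.17e-04). Its relative Dpysl5 fell from 15.1 to 10.4 CPM (-0.54, 0.0393), and Stmn2, a microtubule-destabilising protein of growth cones, fell from 138 to 112 CPM (-0.30, 0.00922). In these 4 genes no CBP-ifKO library reached a Control library. The calls of Tubb3 and Dpysl3 held in every alternative run. That of Stmn2 was lost without Control 3, CBP-ifKO 2 or CBP-ifKO 3 (edgeR adjusted p 0.093, 0.0511 and 0.0522), and that of Dpysl5 in DESeq2 (0.059), with library totals (0.0514), with GC and length trends removed (0.121) and without Control 1, Control 3, CBP-ifKO 2 or CBP-ifKO 3 (0.0741 to 0.215).

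The one gene of this list that rose was Bhlhe22, a transcription factor gene, at 84.7, 77.4 and 74.9 CPM in the Control libraries and at 92.7, 107 and 104 CPM in the CBP-ifKO libraries (log2 fold change 0.36, edgeR adjusted p 0.00602). Prox1, which is needed for granule cell identity and is kept in mature granule cells, had an estimate of 0.22 (edgeR adjusted p 0.11) and passed when low counts were not filtered (0.0271) and without Control 1 (0.0252). Many genes of this list, Tubb3, Stmn2 and Prox1 among them, are also expressed by mature neurons, in which Cre is active.

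**Figure D2:**
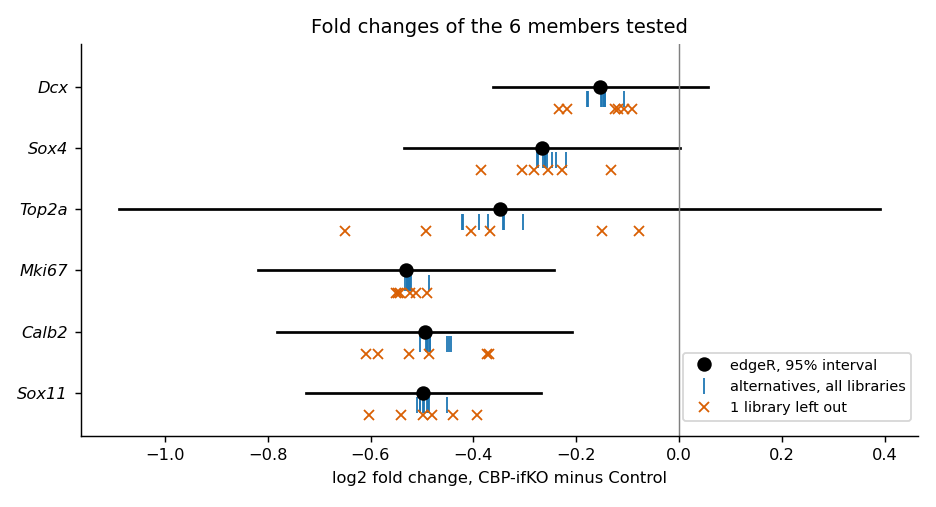
Log2 fold changes (x axis, CBP-ifKO minus Control) of the 6 genes tested, with the edgeR estimate and its 95% interval in black, the estimates of the alternatives that use all libraries as blue ticks and those with 1 library left out as orange crosses. All estimates shown are negative, and the interval of Top2a, from -1.09 to 0.39, is the widest.

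Mki67 (chr7:135689784-135716361) was at 9.58, 9.10 and 9.72 CPM in Control 1 to 3, against 6.11, 6.70 and 6.75 CPM in CBP-ifKO 1 to 3. The libraries of each genotype lay close together and the groups were well apart. The mean fell from 9.47 ± 0.32 to 6.52 ± 0.36 CPM (SD, n = 3), which is -0.53 on the log2 scale (SE 0.14, 95% interval -0.82 to -0.24, edgeR adjusted p 0.0273). It rested on 63 to 106 reads per library. The DESeq2 test did not call it (adjusted p 0.103), whereas that test called Sox11 and Calb2 and 723 of 14628 genes (4.94%) as lower. With 1 library left out the call was kept only without Control 2, and the adjusted p was 0.063 to 0.113 in the other 5 fits. The estimate stayed between -0.55 and -0.49 in all 6.

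Top2a (chr11:98992943-99024189) was at 1.502, 1.89 and 1.19 CPM in Control 1 to 3, against 0.581, 1.58 and 1.32 CPM in CBP-ifKO 1 to 3, from 6 to 24 reads per library. CBP-ifKO 1 was lowest, and the other CBP-ifKO libraries lay within the Control range. The log2 fold change of -0.35 had an SE of 0.35 (edgeR adjusted p 0.629), and it ran from -0.65 without CBP-ifKO 2 to -0.08 without CBP-ifKO 1, so that the data set no firm bound on either a fall or a rise. Top2b, the topoisomerase of non-dividing cells such as neurons, was at 211, 216 and 210 CPM in the Control libraries and at 223, 239 and 229 CPM in the CBP-ifKO libraries, with an estimate of 0.12 that did not pass (edgeR adjusted p 0.22).

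The cell cycle genes measured beside Mki67 were mostly above 0 in their estimates. Of the 35 listed, 24 were tested, with Mki67 the 1 lower gene, 1 higher gene and a median log2 fold change of 0.08. Without Mki67 and Top2a, 6 of the 22 tested had estimates below 0 and 16 above. Furthest from 0 among them were E2f1 below (-0.61, edgeR adjusted p 0.139, 18 to 34 reads per library) and Hmgb2 above (1.16, 0.124, 2 to 16 reads). The groups did not overlap in either gene, but neither passed. The gene that rose was Tk1, the thymidine kinase of S phase, at 3.19, 2.15 and 1.88 CPM in the Control libraries and at 6.40, 3.55 and 4.11 CPM in the CBP-ifKO libraries (log2 fold change 0.93, edgeR adjusted p 0.0438). DESeq2 (adjusted p 0.0656) and limma-voom (0.0645) did not call Tk1, nor did edgeR without Control 2 (0.0803), Control 3 (0.176), CBP-ifKO 1 (0.165) or CBP-ifKO 3 (0.083). The replication clamp gene Pcna (0.01, negative with GC and length trends removed), the helicase genes Mcm2 to Mcm7 (-0.11 to 0.33, with Mcm6 passing only without CBP-ifKO 1, edgeR adjusted p 0.0337) and the mitotic genes Ccna2 (0.08) and Cenpe (0.15) did not pass. The 11 genes not tested included Cdk1, with 7 reads in all Control and 8 in all CBP-ifKO libraries, and Aurkb, with 3 and 3. Others of the 11 had unequal counts, among them Birc5, with 11 reads in Control and 28 in CBP-ifKO, and Ccnb1, with 7 and 2. The groups did not overlap in Birc5 but did in Ccnb1.

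The log2 ratio of Mki67 to the sum of the other cell cycle genes tested was -3.39, -3.63 and -3.46 in Control and -4.18, -4.18 and -4.10 in CBP-ifKO. The mean difference was -0.66 without overlap (two-sided exact permutation p 0.1, the smallest possible, Benjamini-Hochberg p 0.3). Mki67 and the sum of these genes thus stood in a different proportion in every library of one genotype than in every library of the other, a comparison chosen after the values were seen.

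**Figure D3:**
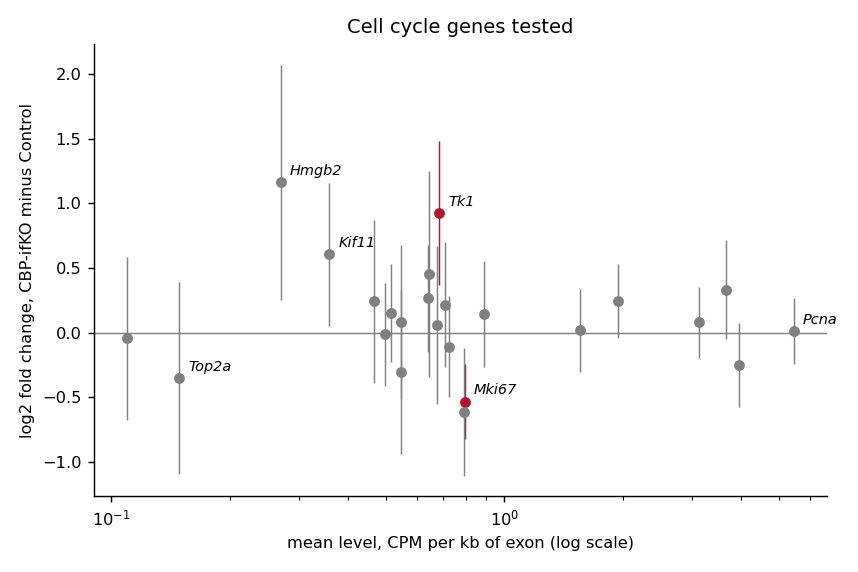
Log2 fold change (y axis, CBP-ifKO minus Control, with 95% interval) against mean level (x axis, CPM per kilobase of exon, log scale) for the 24 cell cycle genes tested, red where the adjusted p was under 0.05. Mki67 at -0.53 and Tk1 at 0.93 are the 2 red points, on opposite sides of 0, and most other intervals cross 0.

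Oligodendrocyte precursors are the other main dividing cells of the adult hippocampus, and some of their markers fell as well. Of 8 markers, all with estimates below 0, 3 were lower: the growth factor receptor gene Pdgfra (from 79.3 to 60.7 CPM, log2 fold change -0.38, edgeR adjusted p 0.00263), the NG2 proteoglycan gene Cspg4 (26.0 to 17.6 CPM, -0.57, 0.00251) and Gpr17, of precursors that begin to differentiate (28.1 to 21.8 CPM, -0.36, 0.0433). Pdgfra and Cspg4 were called in every alternative run, whereas Gpr17 was not called by DESeq2 (adjusted p 0.0823) or limma-voom (0.0524), with library totals (0.0759), with GC and length trends removed (0.112) or in edgeR without any 1 library but Control 2 (0.0763 to 0.182). Of the 8, 7 had an unadjusted edgeR p under 0.05, and the median of the 8 was -0.40. Their summed level was 183 to 201 CPM in the Control libraries and 145 to 150 CPM in the CBP-ifKO libraries, and none was at 0. Relative to this sum Mki67 differed by -0.15 and Sox11 by -0.11 on the log2 scale, both with overlapping groups (two-sided exact permutation p 0.2 and 0.5, Benjamini-Hochberg p 0.3 and 0.5). The part of these cells in the differences in Mki67 and Sox11 was not tested.

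**Figure D4:**
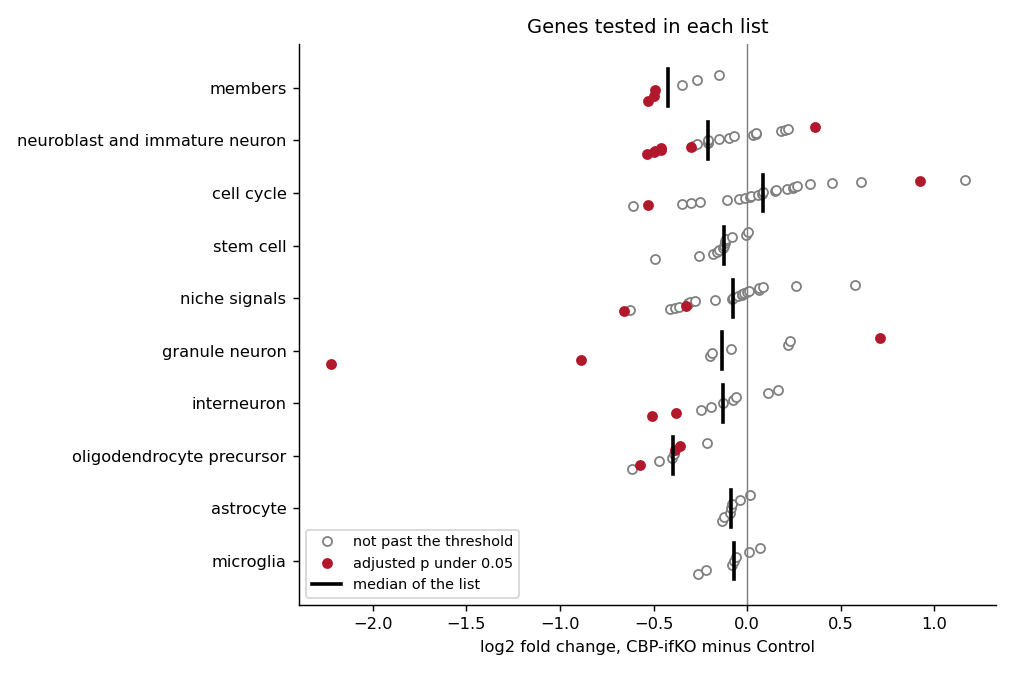
Log2 fold change (x axis, CBP-ifKO minus Control) of each gene tested in 10 of the gene lists (y axis), filled red where the adjusted p was under 0.05, with a black bar at the list median. The medians lie at -0.42 for the genes described here, of which 6 were tested, at -0.40 for the oligodendrocyte precursor markers and at 0.08 for the cell cycle genes.

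Other cells that could contribute RNA of these genes were checked in the same way. Neuroblasts bound for the olfactory bulb also express Dcx and Sox11, and of 7 of their markers 6 were tested and 1 was lower, Etv1 (from 97.9 to 79.4 CPM, log2 fold change -0.30, edgeR adjusted p 0.0291), a gene also found in hippocampal neurons, which was no longer called with library totals (0.0629) or without any 1 library but Control 2 (0.0559 to 0.191). Dlx2 and Dlx5, also on this list, did not pass (-0.47 and -0.93, edgeR adjusted p 0.567 and 0.11). Of the 6 estimates 4 were below 0 and 2 above, and they ran from -0.93 to 0.42. The 7 summed to 115 to 135 CPM in the Control libraries and 99.5 to 109 CPM in the CBP-ifKO libraries, and Etv1 made up most of that sum. None of the markers of thalamus (6 tested, Plekhg1 -0.18, Slc17a6 0.19), astrocytes (7, Slc1a2 -0.08), microglia (7, Csf1r -0.08), endothelial cells (6, Slco1a4 -0.11), ependymal cells (5, Foxj1 -0.10) or choroid plexus (3) passed in edgeR or DESeq2, with 0, 1, 2, 1, 0 and 1 of them at an unadjusted edgeR p under 0.05. The signs of Csf1r and Foxj1 turned with GC and length trends removed. Slc1a2 passed when Control 2 was left out (edgeR adjusted p 0.0202). The 3 choroid plexus markers tested were Ttr (log2 fold change -0.56), Clic6 (-0.56) and Kl (0.26). Ttr, the transthyretin gene, was at 15.4, 21.6 and 25.0 CPM in the Control libraries and at 4.07, 15.7 and 21.1 CPM in the CBP-ifKO libraries, so that CBP-ifKO 1 stood lowest and the others lay within the Control range. Its edgeR adjusted p was 0.32, and 2.44e-04 when low counts were not filtered. The choroid plexus list summed to 40.8 to 54.7 CPM in the Control libraries and 31.3 to 55.8 CPM in the CBP-ifKO libraries. No gene on any of these lists was at 0 in every library.

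Mature granule neurons, the cells that newborn neurons become, are among the cells in which the Camk2a promoter is active. Of 8 markers 2 fell, the synaptic organiser gene C1ql2 (from 25.8 to 5.54 CPM, log2 fold change -2.22, edgeR adjusted p 7.27e-06) and Tdo2 (9.38 to 5.05 CPM, -0.89, 0.00172), and Lct rose (45.0 to 73.8 CPM, 0.71, 6.50e-05). Dsp (-0.19) and Stxbp6 (-0.09) did not pass, and Prox1 and Calb1, which are on this list too, passed only under some alternatives. Of 4 pyramidal neuron markers, Wfs1 (-1.19, 8.34e-07) and Fibcd1 (-0.63, 1.48e-05) fell, while Neurod6 (-0.13, edgeR adjusted p 0.232) did not pass.

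Signals of the neurogenic niche were read from 27 genes, of which 24 were tested, 2 were lower and none was higher, with a median log2 fold change of -0.08. Bdnf, the neurotrophin that supports survival of new neurons and is released by mature neurons, was at 52.2, 58.4 and 48.2 CPM in the Control libraries and at 36.1, 32.8 and 32.0 CPM in the CBP-ifKO libraries (-0.66, edgeR adjusted p 2.51e-04). Fgfr1, a receptor through which FGF2 maintains stem cells, was at 76.1, 71.6 and 76.9 CPM in the Control libraries and at 65.4, 51.8 and 62.2 CPM in the CBP-ifKO libraries (-0.33, 0.0235). Neither gene showed overlap between the groups. The Bdnf receptor gene Ntrk2 (-0.05) and the Notch target Hes1 (-0.08) did not pass. Fgfr1 was no longer called without Control 1 (edgeR adjusted p 0.0595), Control 3 (0.113), CBP-ifKO 2 (0.139) or CBP-ifKO 3 (0.0693) or with GC and length trends removed (0.0838), whereas Bdnf was called in every alternative run.

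The remaining relative of a listed gene was Tbr1, the T-box factor that follows Eomes in cortical neurons, at 17.5, 14.3 and 21.6 CPM in the Control libraries and at 17.1, 12.9 and 14.9 CPM in the CBP-ifKO libraries (log2 fold change -0.25, edgeR adjusted p 0.334). Igfbp7, of the same family as Igfbpl1, was at 5.91, 6.18 and 5.55 CPM in the Control libraries and at 10.8, 6.18 and 6.01 CPM in the CBP-ifKO libraries, with the difference carried by CBP-ifKO 1 (0.35, 0.357). Of the 11 relatives none passed in edgeR or DESeq2, and 4 had an unadjusted edgeR p under 0.05.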

How the data were processed

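Total hippocampal RNA of 3 Control and 3 CBP-ifKO libraries was sequenced as single-end reads of 50 bp. According to the labels and the study's methods, the authors trimmed reads with Trim Galore (0.6.4), aligned them with STAR (2.6.1) to GRCm38, removed reads of low mapping quality and counted reads over Ensembl exons with Rsubread. The values deposited by the authors are raw counts per gene without normalization, and the strand setting was not stated. Of 55471 identifiers 55230 (99.57%) matched GENCODE M21, the source of symbols and coordinates. Counts were tested with edgeR (4.0.16, quasi-likelihood F-test, TMM, Benjamini-Hochberg over 17981 genes, threshold 0.05), and the fit was tested on simulated data. Genes were kept by filterByExpr with a minimum count of 10, required in some libraries and not in each, and a minimum total of 15. The SE is that of the log2 fold change. Alternatives were DESeq2 (1.42.0), limma-voom (limma 3.58.1), other scalings and filters, removal of GC and length trends, the replicate number as a block, and each library left out. The biological coefficient of variation was 6.81%.

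Groups came from the genotype labels. The genes and gene lists were chosen with earlier results of these data known. The genes named were the 9 members, their relatives, Crebbp and Esr1, up to 4 genes past the threshold with the largest change in each other list and the highest marker of each cell type list. Other genes were named after their values were seen. Lists were described by counts and medians, with no test over a list. P-values measure the spread between pooled libraries. Not every gene of the lists is reported here. Promoter sequences are from RefSeq (GRCm38.p6).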

Additional observations from a re-analysis of the deposited data

How the results depend on the processing

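Sox11 was called in each of the 9 alternatives with all libraries, Mki67 in 8 and Calb2 in 7, and Dcx, Sox4 and Top2a in none. Without single libraries, 0 to 3 of the 9 genes were called lower: 0 without CBP-ifKO 2, 1 without Control 3, CBP-ifKO 1 or CBP-ifKO 3, 2 without Control 1 and 3 without Control 2. Across all genes the same fits gave 416 to 984 lower and 76 to 342 higher calls, with the fewest lower calls without CBP-ifKO 2 and the fewest higher calls without CBP-ifKO 3. The number of higher genes, 252 as reported, was 514 with library totals, 413 without the filter and 717 with GC and length trends removed under the replicate block. Library totals moved the median of all genes from -0.00331 to 0.043 and the split to 514 higher and 667 lower. The fit with the replicate block alone gave 950 lower and 260 higher genes and changed no call among the 9 genes (Sox11, Calb2 and Mki67 lower). Among the other genes named it ended the call of Gpr17 (edgeR adjusted p 0.0556) and gave one for Calb1 (0.0433) and Ttr (0.0438), and with GC and length trends removed as well Kl (0.0381), Neurod6 (0.0168), Ociad2 (0.00858) and Prox1 (0.0151) passed too. By their labels, same-numbered libraries share only a number. Their deviations from their group means correlated at 0.0769, 0.0369 and 0.0022. Differently numbered libraries were not compared in this way, so whether same-numbered ones share a litter or a batch was not tested.

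Signs turned for some genes that did not pass (log2 fold changes): Csf1r (0.0093 with GC and length trends removed, 0.0087 with the block added), Dclk2 (0.0045 and 0.0044, and -0.102 to 0.030 with 1 library left out), Dclk3 (0.017 and 0.013, and -0.142 to 0.0027 with 1 left out), Foxj1 (0.126 and 0.129, and -0.238 to 0.144), Reln (0.035 and 0.034, 0.018 with library totals and -0.0818 to 0.035 with 1 left out) and Neo1 (0.026 with library totals and -0.0518 to 0.025 with 1 left out). The same was so of Pcna (-0.0266 and -0.0301, and -0.0397 to 0.122 with 1 left out), Insm1 (0.228 and 0.230, 0.000338 in DESeq2, 0.029 with library totals and -0.164 to 0.123 with 1 left out), Ccna2 (-0.141 to 0.425 with 1 left out), Mcm2 (-0.25 to 0.077) and Ntrk2 (-0.0912 to 0.0034). The cause was not tested. Depth limits Eomes, Igfbpl1, Draxin and Top2a, for which the reads could not show a moderate change.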
